A study of Glycine max with 21 samples.

Results

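The comparison of 12 hr with 6 hr of dehydration in soybean roots rested on 6 libraries, the 3 replicates at 12 hr and the 3 replicates at 6 hr, out of 21 libraries in the study. The plants were Glycine max cv. Williams 82 seedlings at the first trifoliolate stage, and RNA came from their roots. For dehydration, seedlings were kept in air with restricted water. The remaining libraries, also 3 per group, were roots dehydrated for 1 hr, roots of seedlings moved into 100 mM NaCl for 1, 6 or 12 hr, and untreated roots at 0 hr. The untreated roots did not enter any fold change given here. They entered the fit through the filter on low counts, the normalization and the estimate of spread between replicates. The question was which genes moved between an intermediate and a later hour of water loss, when the roots at both hours were already under stress. Because the seedlings were harvested at successive hours, hours of dehydration and the hour of harvest cannot be told apart.

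A root that loses water slows its growth, accumulates abscisic acid and switches on transcription factor genes, whose products bind DNA and set the level of other genes. NAC, WRKY, AP2-EREBP, MYB-related and homeodomain-leucine zipper (HD-Zip) proteins are plant transcription factor families with members known for responses to drought and salt. CONSTANS-like (CO-like) proteins carry B-box zinc fingers and are best known from Arabidopsis, where several act with light and day length. The transcripts of many plant transcription factors also go up and down over the day. The deposited values were counts of uniquely mapped reads on Glyma gene models. The sources used here pair a gene model with a transcription factor class or an HD-Zip subfamily for part of the genes only, so that the other genes are given by their identifiers, with no function. For the same reason the root label could not be checked against marker genes.

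The totals were 9091870, 7982421 and 7413769 counts for replicates 1, 2 and 3 at 6 hr, and 6590225, 3752853 and 3802430 at 12 hr. Each library at 12 hr was shallower than each library at 6 hr. Replicates of 1 group had rank correlations of 0.924 to 0.968 over genes. At 6 hr replicate 1 stood farther from the others, with rank correlations of 0.936 and 0.937 against 0.968 between replicates 2 and 3. Its 10 most abundant genes took 4.46% of its counts, against 2.64 and 2.25% in the others. At 12 hr replicate 3 stood farther from the others, with rank correlations of 0.938 and 0.924 against 0.9625 between replicates 1 and 2. The 3 libraries at 12 hr were sequenced in lane 4, together with replicate 3 of 6 hr, whereas replicates 1 and 2 of 6 hr were in lane 3. In the values below, CPM are counts scaled to a common library total after TMM normalization, and they are levels that can be compared between libraries for 1 gene but not between genes of different length.

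Few genes were called as changed between 6 and 12 hr. Of 36691 genes tested, 16 were called at an adjusted p under 0.05 with a fold change of at least 2 (edgeR's quasi-likelihood test, Benjamini-Hochberg adjustment), which is 0.0436% of the genes tested. There were 5 genes that rose (0.0136%) and 11 that fell (0.03%). The falls ranged from 2.92-fold to 15.7-fold and the rises from 2.01-fold to 16-fold. In each of the 16 genes the 3 libraries at 12 hr lay wholly above or wholly below the 3 at 6 hr, a pattern also found in 10.5% of all genes tested. In whole roots, fewer cells of a type and less RNA per cell cannot be told apart. The median log2 fold change of all genes was −0.01, with an interquartile range from −0.24 to 0.21. At an unadjusted p under 0.05 there were 1813 genes (4.94%), of which 961 (2.62%) had a positive and 852 (2.32%) a negative change. A share of about 0.05 would be found with no change in any gene, so these 1813 are not a count of changed genes. The number of calls differed between fits, and the cause was not tested. A fit restricted to these 6 libraries called 5 genes, and each of them fell (Glyma11g21580, Glyma13g26930, Glyma16g01980, Glyma15g37980 and Glyma07g05410). With sequencing lane as a term 6 falling genes were called, which were the first 4 of these with Glyma11g07930 and Glyma02g41810. Replicate 3 of 6 hr shares lane 4 with the 12 hr libraries. A fit with it as the only 6 hr library kept the other groups in their lanes. No number of calls is given for that fit, since 1 library shows no spread and is assumed to vary like the other groups. DESeq2's Wald test called 61 genes, including the 16.

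**Figure D1:**
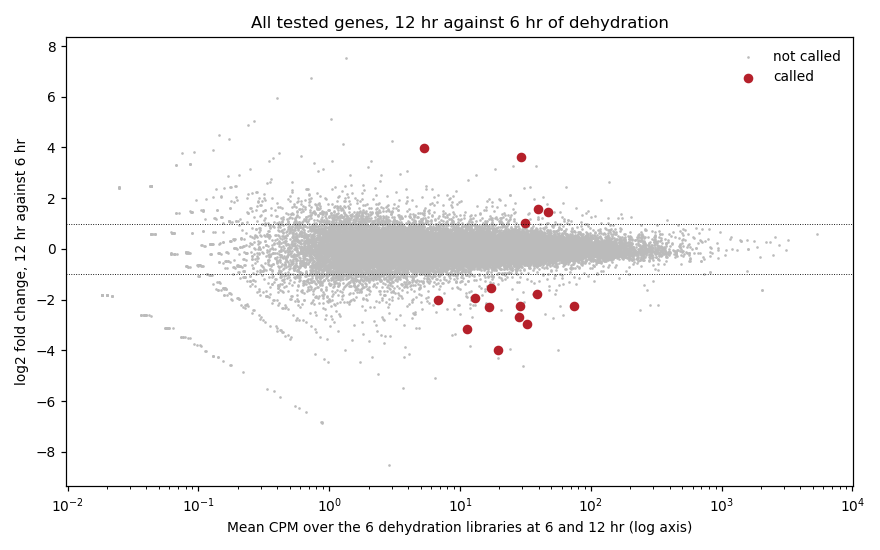
Each point is a gene, placed by its mean CPM over the 6 dehydration libraries at 6 and 12 hr (log axis) and its log2 fold change at 12 hr against 6 hr, and dotted lines mark a 2-fold change. The 16 genes called (red) have intermediate levels, 5 above and 11 below 0, and 32 tested genes with no count in these 6 libraries are not drawn.

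The steepest fall was that of Glyma11g21580, for which no function was annotated in the sources used here. Its level was 41.1, 40.1 and 30.2 CPM in replicates 1 to 3 at 6 hr and 3.13, 1.82 and 1.81 CPM at 12 hr, from 232 to 373 counts per library down to 7 to 21. The lowest library at 6 hr was still 9.66 times the highest at 12 hr. The log2 fold change was −3.98 ± 0.30 (SE; adjusted p = 3.91e-06, edgeR). At 1 hr the level had been 73.7 to 123 CPM, so that the gene was lower at each successive hour.

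Glyma13g26930 and Glyma15g37980 fell in a similar manner. Glyma13g26930 had 56.5, 59.2 and 56.1 CPM at 6 hr and 6.41, 5.46 and 10.1 CPM at 12 hr (log2 fold change −2.98 ± 0.28, adjusted p = 6.87e-05). For Glyma15g37980 the levels were 50.6, 53.4 and 41.9 CPM at 6 hr and 8.05, 4.68 and 9.81 CPM at 12 hr (log2 fold change −2.69 ± 0.31, adjusted p = 0.000778). In both genes the replicates at 6 hr lay within a narrow band, and no library at 12 hr reached it. Glyma04g26800 started lower, at 25.7, 20.7 and 14.8 CPM, and reached 1.64, 1.56 and 3.87 CPM (6 to 15 counts per library at 12 hr). Its log2 fold change was −3.15 ± 0.41 (adjusted p = 0.00316), with a larger SE than the former genes at these low counts.

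Among the genes with an annotated class, 2 MYB/HD-like genes fell. This class holds proteins with a MYB or a homeodomain-like DNA-binding fold. Glyma16g01980 was at 107, 153 and 110 CPM at 6 hr and at 24.1, 27.6 and 26.3 CPM at 12 hr. The 3 libraries at 12 hr differed by little from each other, and the log2 fold change was −2.25 ± 0.22 (adjusted p = 8.49e-05). The same gene had stood at 500.0 to 634 CPM after 1 hr, which places 6 hr between the first and the last hour. Glyma07g05410 had 45.9, 55.9 and 41.3 CPM at 6 hr and 11.2, 10.4 and 8.26 CPM at 12 hr, with a log2 fold change also of −2.25 but a larger SE of 0.33 (adjusted p = 0.00874). At 1 hr it had been at 135 to 208 CPM.

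The third annotated gene that fell, Glyma11g07930, belongs to the CO-like class. Its level was 23.0, 22.5 and 16.4 CPM at 6 hr and 4.92, 5.72 and 5.42 CPM at 12 hr, and the log2 fold change was −1.95 ± 0.27 (adjusted p = 0.00483). At 1 hr it was at 50.9 to 69.9 CPM.

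The other genes that fell had no class. Glyma02g41810 went from 21.9, 33.2 and 27.6 CPM to 6.11, 7.28 and 3.36 CPM (log2 fold change −2.29 ± 0.37, adjusted p = 0.0234). Glyma11g25860 was at 9.92, 11.3 and 11.1 CPM at 6 hr and at 1.94, 2.34 and 3.87 CPM at 12 hr (log2 fold change −2.02 ± 0.30, adjusted p = 0.00878). For Glyma11g25860 most of the difference over the time course lay before 6 hr, since the libraries at 1 hr held 119 to 128 CPM. Glyma07g05530 showed the opposite shape, with 68.1 to 84.7 CPM at 1 hr, 49.2, 74.2 and 57.7 CPM at 6 hr, and 18.6, 19 and 15.5 CPM at 12 hr (log2 fold change from 6 to 12 hr −1.77 ± 0.23, adjusted p = 0.00289). Glyma08g19150 had 30.2, 24.9 and 22.5 CPM at 6 hr and 9.39, 9.62 and 7.49 CPM at 12 hr, the smallest fall of the 11 (log2 fold change −1.55 ± 0.23, adjusted p = 0.00874). Over the 11 genes, the libraries at 1 hr were above each library at 12 hr in 11 genes and above each library at 6 hr in 9, the exceptions being Glyma04g26800 and Glyma07g05530, whose 1 and 6 hr libraries overlapped.

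**Figure D2:**
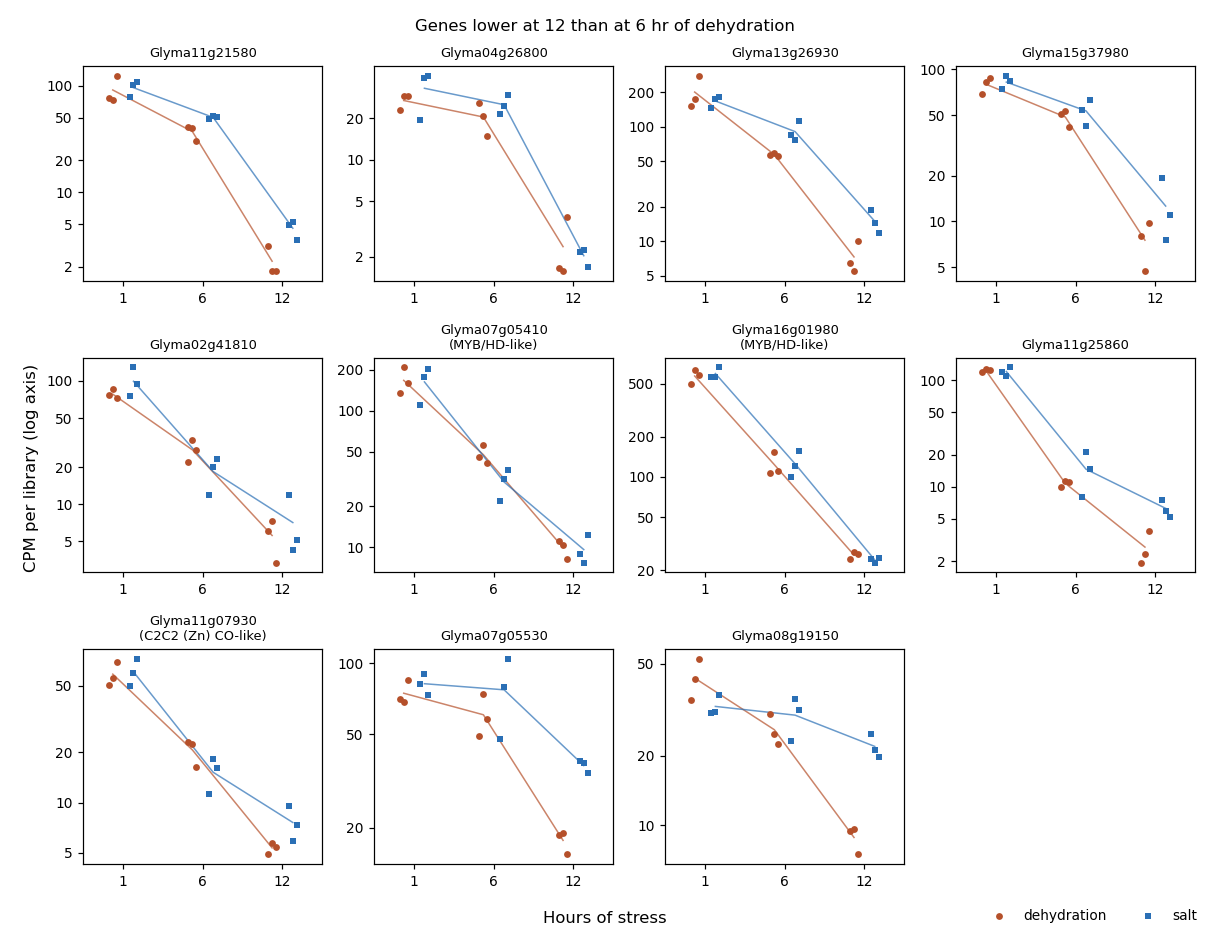
CPM of each library (log axis) at 1, 6 and 12 hr for the 11 genes that fell between 6 and 12 hr of dehydration, ordered by fold change, with dehydration as circles, salt as squares and lines through the group means. In each panel the 3 dehydration libraries at 12 hr lie below those at 6 hr, and in 9 panels those at 6 hr lie below those at 1 hr.

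Of the genes that rose, Glyma11g35270 and Glyma16g32080 had much larger changes than the others. Glyma11g35270 was low at 1 hr, with 0.177 to 0.566 CPM, had 1.87, 7.46 and 3.78 CPM at 6 hr, and reached 37.1, 33.5 and 90.9 CPM at 12 hr. The lowest library at 12 hr was 4.50 times the highest at 6 hr, although replicate 3 at 12 hr was well above the other replicates. The log2 fold change was 3.62 ± 0.50 (SE; adjusted p = 0.00494, edgeR). For Glyma16g32080 only 1, 5 and 9 counts were found at 6 hr (0.11, 0.601 and 1.17 CPM), against 54, 16 and 69 counts at 12 hr (8.05, 4.16 and 17.8 CPM). This gene had been at 1.7 to 2.99 CPM at 1 hr, so that its level at 6 hr was the lowest of the 3 hours. Its log2 fold change of 4.0 ± 0.67 (adjusted p = 0.0276), with a 95% interval from 2.60 to 5.40, was the largest and the least precise of the 16.

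The CO-like genes Glyma14g36930 and Glyma02g38870 rose by similar amounts. Glyma14g36930 had 18.6, 20.6 and 20.5 CPM at 6 hr and 49.8, 41.9 and 86.2 CPM at 12 hr (log2 fold change 1.57 ± 0.25, adjusted p = 0.0215). Glyma02g38870 had 24.4, 24.2 and 26.7 CPM at 6 hr and 61.1, 53.6 and 92.1 CPM at 12 hr (log2 fold change 1.46 ± 0.24, adjusted p = 0.0258). Both genes were tight at 6 hr and spread at 12 hr, with replicate 3 the highest. The last gene, Glyma13g04770, had no class and rose from 19.2, 23.1 and 19.9 CPM to 41.4, 38.7 and 44.7 CPM, a log2 fold change of 1.00 ± 0.15 (adjusted p = 0.00874) that lay just past the limit of 2-fold. Its replicates differed little at either hour.

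Replicate 3, which stood farther from the other 12 hr libraries, was the highest of them in each of the 5 genes that rose. The part of this library in the rises was not tested beyond leaving it out, which left 1 rising and 9 falling genes called. Leaving out other libraries also changed the number of rises. None was called without replicate 3 of 6 hr and 1 without replicate 1 of 12 hr, whereas between 5 and 10 falling genes were called in each of the 6 fits that left 1 library out. The falls did not hold alike: Glyma02g41810 was called in 1 of these 6 fits. Glyma11g21580, Glyma13g26930 and Glyma16g01980 were called in each of those 6 fits and in the 13 other alternatives run, including lane as a term (adjusted p at most 0.0175, 0.0247 and 0.0386 over the 13 alternatives).

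**Figure D3:**
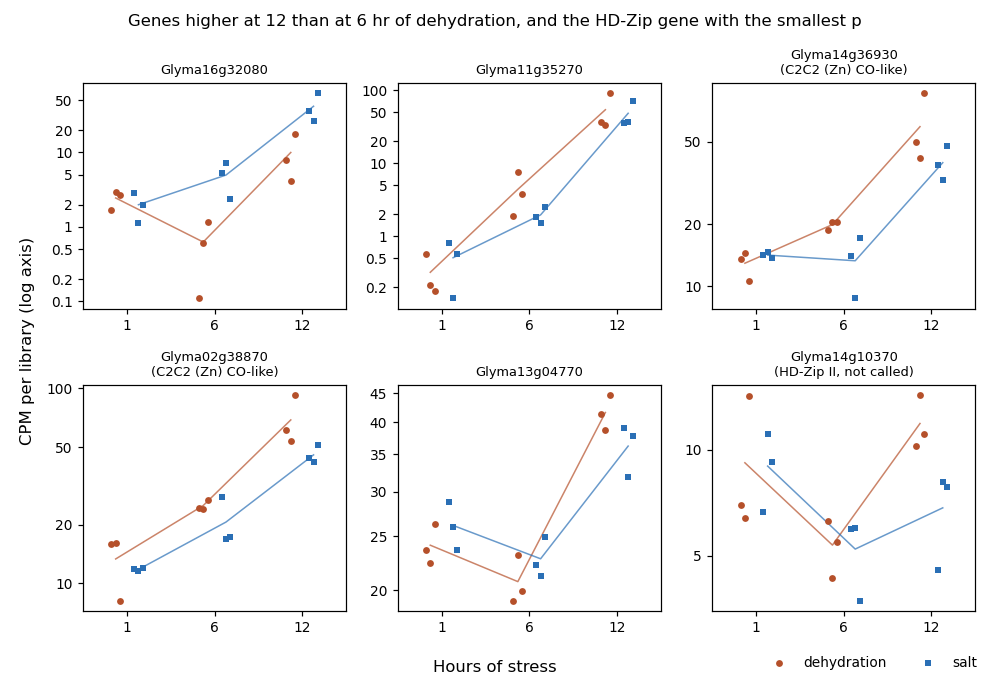
CPM of each library (log axis) at 1, 6 and 12 hr for the 5 genes that rose between 6 and 12 hr of dehydration and for Glyma14g10370, the HD-Zip gene with the smallest p-value, which was not called. Circles are dehydration, squares salt, and lines join group means. In the 5 called genes the 3 dehydration libraries at 12 hr lie above those at 6 hr.

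The salt libraries gave the same interval of hours in other seedlings under another stress. Between 6 and 12 hr in NaCl, 53 of 36691 genes were called (0.144%), 16 with a positive (0.0436%) and 37 with a negative change (0.101%). There were 4996 genes with an unadjusted p under 0.05 (13.6%). The salt libraries at 6 hr were in lane 2 and those at 12 hr in lanes 2, 3 and 4. Of the 16 genes called under dehydration, 9 were called under salt too, each in the same direction. These 9 genes were 56.2% of the dehydration list and 17% of the salt list. The sign of the fitted change was the same in 16 of 16, and the 6 and 12 hr salt libraries did not overlap in 14 of 16. Over all genes tested, the sign was the same in 54.9% and the salt libraries did not overlap in 17.7%.

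Glyma16g01980 had 99.8, 121 and 155 CPM at 6 hr of salt and 24.3, 22.8 and 24.8 CPM at 12 hr. The log2 fold change was −2.39 ± 0.22 (adjusted p = 4.92e-05, edgeR) against −2.25 under dehydration. The levels of this MYB/HD-like gene under both stresses were nearly superimposed, and the difference between the changes was 0.14 on the log2 scale (95% interval −0.49 to 0.77). Glyma11g21580 went from 49.1, 51.6 and 50.8 CPM to 4.98, 5.24 and 3.57 CPM under salt (log2 fold change −3.46 ± 0.27, adjusted p = 8.35e-06). Glyma04g26800 and Glyma13g26930 had log2 fold changes of −3.63 ± 0.40 and −2.61 ± 0.27 under salt (adjusted p = 0.000444 and 0.000151). For Glyma11g35270 the salt libraries held 1.85, 1.5 and 2.51 CPM at 6 hr and 35.3, 37.1 and 71.9 CPM at 12 hr. Its log2 fold change of 4.54 ± 0.54 under salt was the larger of the pair (adjusted p = 0.0011), and the difference of −0.92 had an interval from −2.38 to 0.54. Glyma16g32080 had 5.34, 7.24 and 2.37 CPM at 6 hr of salt and 36.2, 26.4 and 62.6 CPM at 12 hr, levels above those of dehydration at both hours, with a log2 fold change of 3.14 ± 0.56 (adjusted p = 0.0332). The CO-like gene Glyma14g36930 had nearly equal changes, 1.57 under dehydration and 1.55 ± 0.26 under salt (difference 0.02, 95% interval −0.74 to 0.78).

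The other 7 genes were not called under salt. Glyma08g19150 had the smallest change of them under salt, with 23.2, 35.2 and 31.4 CPM at 6 hr and 24.9, 21.1 and 19.8 CPM at 12 hr of salt, so that the hours overlapped under salt and not under dehydration. Its log2 fold change was −0.45 ± 0.21 under salt and −1.55 under dehydration, a difference of −1.09 (95% interval −1.75 to −0.44). The unadjusted p of this difference was 0.00255, but the adjusted p was 0.655. For the CO-like gene Glyma11g07930 the salt levels were 11.3, 18.2 and 16.1 CPM at 6 hr and 9.53, 5.88 and 7.38 CPM at 12 hr (difference −0.94, interval −1.71 to −0.16, adjusted p = 0.693). Glyma07g05530 had 47.4, 79.3 and 104 CPM at 6 hr of salt and 38.6, 37.6 and 34.1 CPM at 12 hr, above dehydration in each library at the later hour (difference −0.69, interval −1.35 to −0.04, adjusted p = 0.707). For the remaining 13 genes the interval of the difference included 0.

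Tested over all genes, the change from 6 to 12 hr was not called different between dehydration and salt for any gene (0 of 36691, 0%, edgeR). There were 2566 genes with an unadjusted p under 0.05 (6.99%), and DESeq2's Wald test called 17, none of them among the 16. A p over the threshold does not show that the stresses acted alike, and the intervals above give the differences that the libraries allow.

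**Figure D4:**
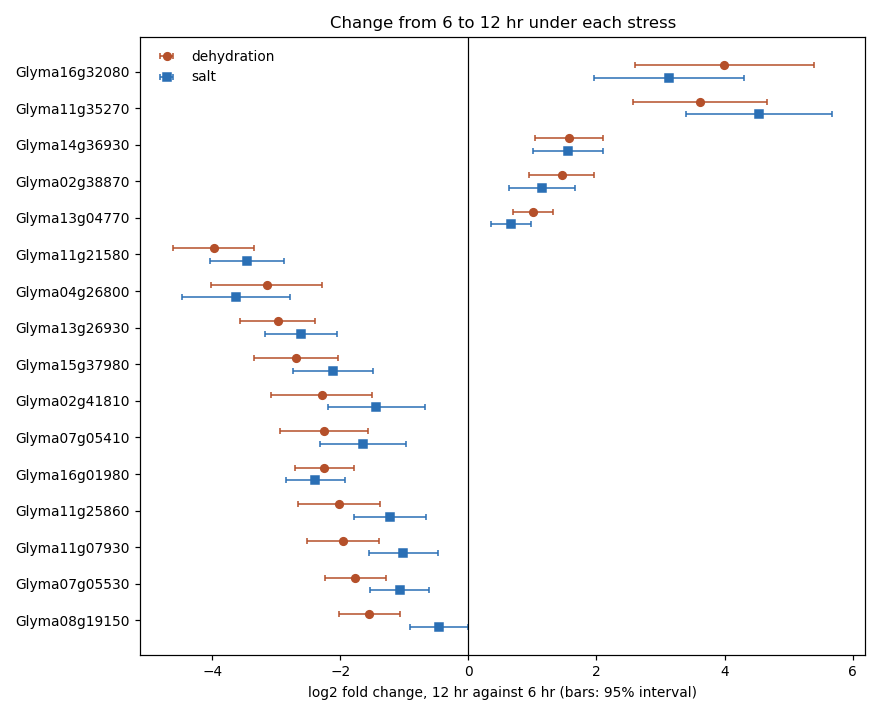
Log2 fold change at 12 hr against 6 hr for the 16 genes called under dehydration, with 95% intervals from the edgeR fit, under dehydration (circles) and salt (squares). The points of a gene lie on the same side of 0 in 16 of 16, and in 13 the dehydration point is the farther from 0.

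Transcription factor classes were taken from the study's own list of 1054 transcription factor genes, which was chosen for responses in these libraries. The list is therefore not independent evidence of a direction, nor of how often its members changed. Shares of the list and of its classes are set against all genes for description only. Whether a class changed more often than unselected genes was not tested. Of 978 listed genes tested, 2 rose and 3 fell, against 0.0436% called of all genes. There were 72 with an unadjusted p under 0.05, which is 7.36% against 4.94% of all genes. The median log2 fold change of the list was 0.02.

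The CO-like class had 34 members tested, of which 2 rose, 1 fell and 31 were not called. Its members spread to both sides: 5 had a positive and 7 a negative change at an unadjusted p under 0.05 (12 of 34, 35.3%), and the median was −0.39. Libraries did not overlap between the hours in 13 of the 34, 4 above and 9 below at 12 hr. This share was 38.2%, against 10.5% of all genes, which were not chosen for a response. Glyma13g37970 was the nearest to a call, with 21.8, 22.4 and 26.3 CPM at 6 hr and 8.79, 10.4 and 6.2 CPM at 12 hr (log2 fold change −1.47 ± 0.27, adjusted p = 0.074). Its change under salt was −0.49. Glyma12g11230 went from 5.95, 5.77 and 5.34 CPM to 2.38, 2.86 and 0.774 CPM (log2 fold change −1.48 ± 0.34, adjusted p = 0.353), and Glyma10g41540 had 5.73, 3.73 and 2.48 CPM at 6 hr and 8.94, 12.5 and 18.3 CPM at 12 hr (1.71 ± 0.43, adjusted p = 0.481). These 3 CO-like genes had non-overlapping libraries and missed the threshold in edgeR, while DESeq2's Wald test called them among 6 CO-like genes.

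Among 130 MYB/HD-like genes tested, 2 fell and 128 were not called. At an unadjusted p under 0.05 there were 8 with a positive and 15 with a negative change (23 of 130, 17.7% against 4.94% of all genes). The median was −0.08. Libraries did not overlap in 31 of the 130, 10 above and 21 below at 12 hr (23.8%, against 10.5% of all genes). Glyma19g45030 had 7.50, 9.14 and 6.12 CPM at 6 hr and 1.79, 1.04 and 0.258 CPM at 12 hr (log2 fold change −2.73 ± 0.52, adjusted p = 0.107). Glyma03g42260 had 7.17, 12.0 and 6.38 CPM and then 1.19, 1.30 and 2.58 CPM (−2.37 ± 0.46, adjusted p = 0.127). Both had been far higher at 1 hr, at 73.2 to 156 CPM and 133 to 236 CPM, which is the order of hours seen in the MYB/HD-like genes that fell. DESeq2's Wald test called 5 genes of this class, the latter pair and Glyma09g29800 included. Glyma09g29800 had 16, 22.3 and 15.9 CPM at 6 hr and 4.77, 3.38 and 6.2 CPM at 12 hr (−1.91 ± 0.46, adjusted p = 0.407). On the other side, Glyma11g14490 had 9.15, 11.8 and 12.6 CPM at 6 hr and 19.97, 20.5 and 39.5 CPM at 12 hr (1.25 ± 0.34, adjusted p = 0.647).

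No gene was called by edgeR in the NAC, WRKY, AP2-EREBP or TPR class, and DESeq2's Wald test called 1 there, the AP2-EREBP gene Glyma05g18170. TPR proteins carry tetratricopeptide repeats, which bind other proteins. Of 57 NAC genes tested, 6 had an unadjusted p under 0.05 (10.5% against 4.94% of all genes), each with a positive change. The median log2 fold change was 0.30, and 43 of the 57 fitted changes were positive and 14 negative (75.4% positive, against 48.6% of all genes). Other classes were skewed too, with 30.2% positive for TPR, 35.3% for CO-like and 60.7% for WRKY. The share was 45.4% for MYB/HD-like and 47.7% for AP2-EREBP. No test of any class was made. In 9 NAC genes the 12 hr libraries were all above those at 6 hr and in 0 all below, against 5.07 and 5.39% of all genes. The NAC gene Glyma08g16630 had 18.7, 20.3 and 18.8 CPM at 6 hr and 29.4, 26.3 and 35.9 CPM at 12 hr (0.66 ± 0.22, adjusted p = 0.878). Another, Glyma13g35550, had 24.9, 2.41 and 3.13 CPM at 6 hr and 36.5, 36.1 and 30.5 CPM at 12 hr, so that replicate 1 at 6 hr lay close to the 12 hr libraries and apart from its own group (1.75 ± 0.77, adjusted p = 0.986). Of 89 WRKY and 128 AP2-EREBP genes, 2 and 4 had an unadjusted p under 0.05 (2.25 and 3.125%), with medians of 0.17 and −0.01. Glyma05g18170 had 14.9, 10.9 and 12.2 CPM at 6 hr and 20.4, 22.4 and 39.5 CPM at 12 hr (1.10 ± 0.26, adjusted p = 0.372). Of 43 TPR genes 8 had an unadjusted p under 0.05 (18.6% against 4.94% of all genes), 3 positive and 5 negative. Libraries did not overlap in 7 of the 43 TPR genes (16.3%) and in 9 of the 57 NAC genes (15.8%), against 10.5% of all genes.

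HD-Zip genes, the family the study was about, showed no called change between these hours. Of the 101 HD-Zip genes listed by the study, 94 were analysed here, 68 passed the filter on low counts, and 0 were called by edgeR or by DESeq2. At an unadjusted p under 0.05 there were 4 with a positive and 1 with a negative change (5 of 68, 7.35% against 4.94%). The libraries did not overlap in 4 of the 68 (5.88% against 10.5% of all genes). By subfamily, the median log2 fold change was 0.30 over 27 HD-Zip I genes, 23 of them positive, and 0.23 over 23 HD-Zip II genes, 19 of them positive. For 11 HD-Zip III and 7 HD-Zip IV genes it was −0.04 and −0.12. Over all genes tested, 48.6% of the changes were positive. Homoeologous partners are counted here as separate genes. Between the same hours of salt the medians of HD-Zip I to IV were 0.05, −0.43, −0.30 and −0.29. HD-Zip I proteins are known from Arabidopsis for drought and abscisic acid responses, HD-Zip II proteins for shade responses, HD-Zip III proteins for vascular and meristem patterning, and HD-Zip IV proteins for the epidermis.

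The HD-Zip gene with the smallest p-value was the HD-Zip II gene Glyma14g10370. It had 6.28, 4.33 and 5.47 CPM at 6 hr and 10.3, 14.3 and 11.1 CPM at 12 hr, which do not overlap, with a log2 fold change of 1.14 ± 0.32 (SE; unadjusted p = 0.00227, adjusted p = 0.707). The HD-Zip I gene Glyma19g01300 had 135, 132 and 161 CPM at 6 hr and 176, 194 and 215 CPM at 12 hr (0.45 ± 0.19, adjusted p = 0.986). Its homoeologous partner in the study's list, Glyma13g23890, had a log2 fold change of 0.38 ± 0.28. The partner's libraries overlapped, with 14.55, 17.8 and 18.9 CPM at 6 hr and 18.6, 16.1 and 32.0 CPM at 12 hr. Libraries of Glyma0041s00350 and Glyma05g30940, the partners of Glyma14g10370 and Glyma08g14130, overlapped too. The HD-Zip II gene Glyma07g14270 had separated libraries and a log2 fold change of 0.63 ± 0.25 (adjusted p = 0.986, edgeR). The HD-Zip I gene Glyma08g14130 also had separated libraries, with 514, 555 and 490 CPM at 6 hr and 614, 714 and 800.4 CPM at 12 hr (0.45 ± 0.22, adjusted p = 0.986). In contrast, the HD-Zip III gene Glyma09g02750 had 49.5, 139 and 72.4 CPM at 6 hr and 55.3, 49.9 and 49.8 CPM at 12 hr, so that its negative change of −0.75 ± 0.29 came with overlapping libraries and a high replicate 2 at 6 hr.

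**Figure D5:**
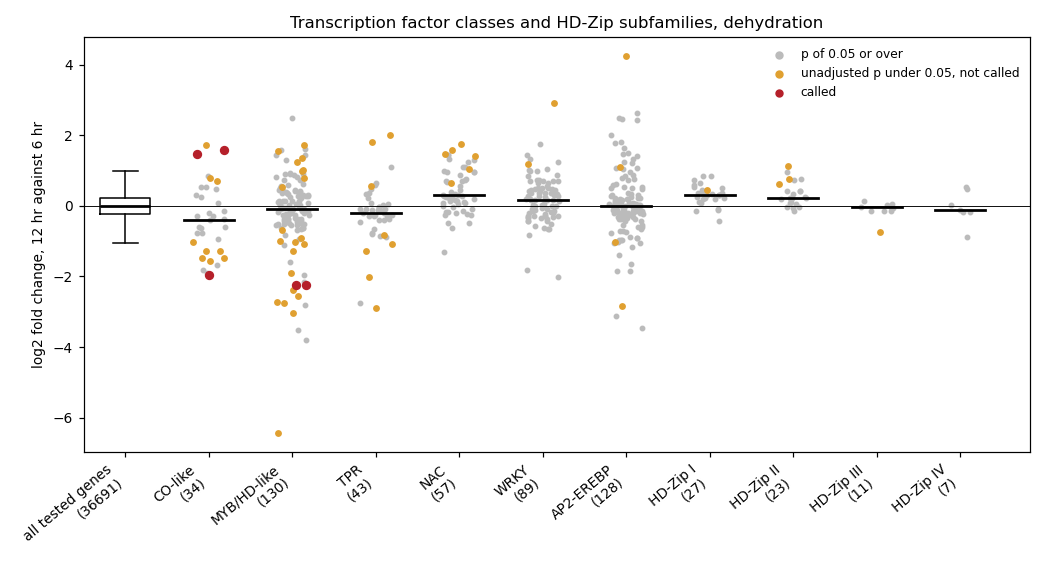
Log2 fold change at 12 hr against 6 hr of dehydration for the tested members (number in brackets) of transcription factor classes and HD-Zip subfamilies, each point a gene and each thick line the median. For all tested genes the box spans the interquartile range and the whiskers the central 95%. Among the classes and subfamilies drawn, called genes (red) occur in the CO-like and MYB/HD-like columns only.

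Many larger fitted changes were not called. There were 129 genes with a fitted change of at least 8-fold that missed the threshold, 33 positive and 96 negative. In 78 of the 129 the libraries at the hours overlapped. Overlap was more common over all genes tested, where the libraries did not overlap in 10.5%. Replicate 3 at 12 hr, which stood farther from its group, was the highest of that group in 15 of the 33 positive ones. Replicate 1 at 6 hr, which also stood farther from its group, was the highest in 69 of the 96 negative ones. Glyma08g08770 was such a gene, with 257, 23.6 and 37.3 CPM at 6 hr and 9.84, 3.12 and 6.71 CPM at 12 hr (log2 fold change −3.97 ± 1.009, adjusted p = 0.514, edgeR). In the genes called as falling, replicate 1 was the highest at 6 hr in 4 of 11. The counts cannot be compared, since a single high library widens the spread and makes a call less likely. The share over all genes tested was not counted. With replicate 1 of 6 hr left out, 12 genes were called, 2 rising and 10 falling, 11 of them among the 16. The gene nearest to the threshold was Glyma13g32480, with 5.95, 8.54 and 10.7 CPM at 6 hr and 30.8, 24.2 and 41.6 CPM at 12 hr (1.94 ± 0.35, adjusted p = 0.0605). Just inside the threshold was Glyma16g32080, at an adjusted p of 0.0276.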

How the data were processed

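RNA was sequenced from roots in 7 groups of 3 libraries. The authors aligned single-end reads with GSNAP and deposited raw counts of uniquely mapped reads per gene model (62537 models, 9055 with no count in any library). The authors also deposited a normalized signal, each count divided by a DESeq (1.7.10) size factor, which was used only in alternatives. The counting program and its use of strand are not given in the sources used here, so overlapping genes are uncertain, as are near-identical copies, since a read matching both was not counted.

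Counts were analysed with R 4.3.3 and edgeR 4.0.16: filterByExpr by group (36691 genes kept), TMM, and glmQLFit (robust) and glmQLFTest in 1 fit of all 21 libraries, without covariates. The biological coefficient of variation was 0.306. The SE is the log2 fold change divided by the square root of F. The replicates were described as biological replicates. No pair of replicates differed by less than sampling noise (chi-square per gene at least 6.30). The scripts were tested on simulated data. Alternatives used DESeq2 1.42.0 and limma 3.58.1, other filters, other sets of libraries, lane, the replicate number, thinning to 3752853 counts and leaving out each library. The lane of each library comes from the study's summary of read counts.

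The comparison, the lists and the tests were chosen with earlier results of these data known. Genes were named by a rule: among called genes without overlap, the 10 in each direction with the smallest p, the 5 in each direction with the largest fold, the HD-Zip gene with the smallest p, and the leading called gene in each direction of a class with at least 3 called. Members near the threshold, and genes named within a class or as large changes not called, were chosen after their values were seen. Lists by gene description (34), marker lists and promoter motifs could not be used, since 0 gene models matched the reference table. The other 7 HD-Zip genes of the study's list were not analysed here.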

Additional observations from a re-analysis of the deposited data

How the results depend on the processing

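The 16 genes called between 6 and 12 hr of dehydration kept their direction under each alternative run. Another outcome was hardly possible, since the alternatives refitted the same libraries, which did not overlap between the hours in these genes. Counts of called genes differed between the alternatives. DESeq2's Wald test called 61 (19 rising, 42 falling), the 6 libraries compared alone gave 5 (0 and 5) and lane as a term 6 (0 and 6). From limma with a pseudocount of 0.1 on the authors' normalized values came 25 (6 and 19). A pseudocount of 1 gave 23 (6 and 17). Leaving out 1 library gave 6 to 16 calls, 0 to 6 rising and 5 to 10 falling; the lowest was without replicate 1 of 12 hr (6), followed by replicate 3 of 6 hr (9) and replicate 3 of 12 hr (10). Without a filter on low counts 15 of the 16 were called, Glyma13g04770 being lost. Listed transcription factor genes called were 12 by the Wald test, 2 with the compared libraries alone, 2 with lane as a term and 1 to 5 with a library left out. No HD-Zip gene was called under any alternative run. Under salt, 423 genes were called by the Wald test, 2 with the compared libraries alone, 7 with lane as a term, 28 after thinning and 7 to 61 with a library left out. The difference between stresses gave 17 calls by the Wald test and 0 otherwise, also with each library left out (0). The cause of these differences between fits was not tested. DESeq2's size factors, a mean of at least 1 CPM, no fold limit and thinning each gave 16 calls under dehydration, and 15 were called without the controls. The genes were not all the same. After thinning 15 of the 16 were kept, Glyma16g32080 being lost. Without the controls 14 of the 16 were kept, and the rising genes Glyma02g38870 and Glyma16g32080 were lost.

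Replicate numbers did not pair the libraries: deviations of same-numbered libraries at 6 and 12 hr had correlations of −0.03, −0.16 and −0.23. With the replicate number as a block, 13 genes were called under dehydration (3 rising, 10 falling), 19 under salt and 0 for the difference. Glyma16g32080 rests on few counts at 6 hr (1, 5 and 9).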
